A study of Homo sapiens with 16 samples.

Results

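Hyaluronan is a long unbranched sugar polymer of the extracellular matrix, spun out through the plasma membrane by hyaluronan synthases and shortened by hyaluronidases. Cells sense it mainly through CD44, a surface receptor that is abundant on basal breast epithelium, and long and short chains are known to act differently on epithelial cells. The genes described here are the synthases HAS2 and HAS3, the hyaluronan-binding depolymerase CEMIP, the cell-surface protein CEMIP2 (also known as TMEM2), the hyaluronidases HYAL1 and HYAL2, and the receptor CD44. They were chosen by symbol as synthesis, degradation and receptor genes of hyaluronan, with earlier results of these data known. They are 7 of the 78894 genes in the count table. Of these, 6 passed the low-count filter and were tested among 16790 genes, and HAS2 was below it.

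RNA was measured by poly(A)-selected sequencing in MCF10DCIS.com, a human breast line derived from MCF10A that models ductal carcinoma in situ. All groups came from a single clone in which both copies of PCSK5 had been disrupted, and carried a hygromycin-selected, V5-tagged PCSK5 transgene under a tetracycline-regulated promoter. PCSK5 is a proprotein convertase that cleaves secreted precursors, among them that of GDF11, a TGF-beta superfamily ligand whose receptors phosphorylate SMAD2 and SMAD3. The 4 groups, each of 4 wells, were the T288P allele with 250 ng/ml recombinant mature GDF11 throughout (T288P+GDF11), the M452I allele (M452I), the T288P allele without GDF11 (T288P), and the wildtype allele (WT). Cells were grown in 3 dimensions on matrigel with 5 ng/ml EGF and 2% matrigel, were given 1 µg/ml doxycycline from day 4 to switch the transgene on, and were harvested on day 8. Each allele is represented by 1 polyclonal line, so an allele cannot be told apart from its line. GDF11 was given to the T288P line alone, so T288P+GDF11 differs from M452I and WT in both allele and GDF11. Nothing says that the wells were separate experiments, so p-values measure the spread between wells, which may be technical.

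The libraries held 28.45 to 50.76 M counts and 21777 to 25335 detected genes. PCSK5 averaged 40.8 ± 10.7 CPM in T288P+GDF11, 39.5 ± 19.3 in M452I, 37.7 ± 13.5 in T288P and 45.4 ± 12 in WT (counts per M counts of a library, SD, n = 4 wells), and was called in none of the 6 comparisons. Basal and epithelial markers (KRT5, KRT14, TP63, EPCAM, CDH1) summed to 2090 to 2310 CPM in T288P+GDF11, against 2520 to 3220 CPM across the other 3 groups. Most of this sum was KRT5, at a mean of 1730 CPM in T288P+GDF11 and 1980 to 2350 CPM in the other groups. Against T288P, KRT5 and CDH1 were called lower and the other 3 markers were not called, with TP63 at 30.5 CPM in T288P+GDF11 and 25.7 CPM in T288P. Of markers of other cell types, COL3A1 and LUM were at 0 in all 16 libraries, and CDH5, VWF and PTPRC were under 1 CPM in each. The endothelial sum was 2.08 to 3.47 CPM in T288P+GDF11 against 0.46 to 1.24 CPM in the other groups, and came from PECAM1 and KDR. The fibroblast sum was 5.75 to 8.37 CPM in T288P+GDF11 against 3.95 to 5.74 CPM. The leukocyte sum, almost all CD68, was 98.7 to 126 CPM in T288P+GDF11 against 118 to 230 CPM. The part of these shifts in the results below was not tested. Both M452I replicate 4 and T288P replicate 1 stood apart from the other wells of their groups on the first principal component of log2 CPM, at 37.49 against -44.73 to -32.93 for M452I, and at -43.02 against 2.145 to 8.812 for T288P. Results that rest on them are given with and without them.

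Per kilobase of exon, the hyaluronan genes spanned a wide range of levels. CD44 was the most abundant, at 58.5 ± 2.13 CPM per kb in T288P+GDF11, 51.8 ± 3.1 in M452I, 51.9 ± 2.9 in T288P and 49.4 ± 0.309 in WT, above 95.5% of tested genes. HAS3 came next, at 9.28 ± 0.589 CPM per kb in T288P+GDF11, 21.5 ± 1.13 in M452I, 21.6 ± 2.05 in T288P and 24.4 ± 1.25 in WT, above 88% of tested genes. HYAL1, HYAL2 and CEMIP2 lay near the middle of all genes, with group means of 1.74 to 3.95 CPM per kb, and CEMIP2 overlapped HYAL2 in every group. In WT wells HYAL1 lay above HYAL2 without overlap, at 3.04 to 4.33 against 2.40 to 3.01 CPM per kb, and in M452I wells their ranges overlapped. The order in WT rests on the division by exon length. By counts HYAL1 was below HYAL2 in every WT well, at 0.866 to 0.99 per HYAL2 count. CEMIP was low, with group means of 0.111 to 0.216 CPM per kb. The wells of CD44, HAS3 and these 3 mid-level genes did not overlap between those ranks in any group.

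HAS3 was in effect the one synthase transcript detected. It held 99.289% to 100% of the counts of HAS1, HAS2 and HAS3 in every well. HAS2, the main synthase of many mesenchymal cells, had 2, 11, 0 and 4 counts in T288P+GDF11 wells, 0, 12, 0 and 0 in M452I wells, 11, 0, 9 and 2 in T288P wells, and 6, 0, 6 and 3 in WT wells. HAS1 had 0 to 7 counts and the antisense gene HAS2-AS1 0 to 11. A count of 0 allows a level of up to 0.0591 to 0.105 CPM, depending on the well (3 counts, counting error only). That limit would be higher if read mates were counted separately. Differences in HAS2 between groups were therefore not detectable at this depth.

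**Figure D1:**
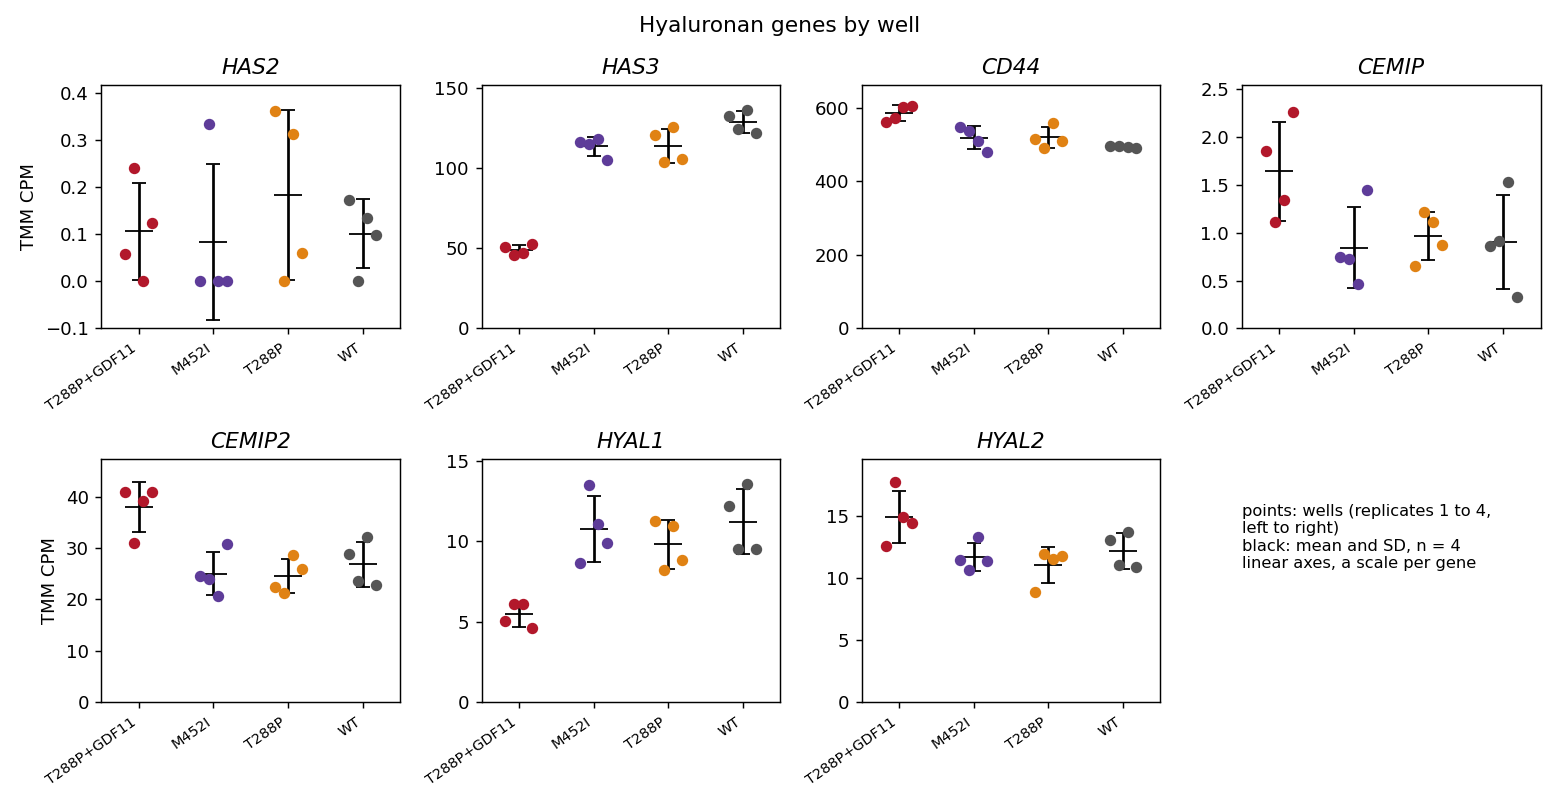
Level of each of the 7 hyaluronan genes in every well, in CPM scaled by TMM factors, with a separate linear axis per gene; points are wells, and black lines are the mean and SD of 4 wells. Group means of HAS3 and HYAL1 are lowest, and those of CD44, CEMIP, CEMIP2 and HYAL2 highest, in T288P+GDF11. The T288P+GDF11 wells of CEMIP, CEMIP2 and HYAL2 overlap those of WT, and HAS2 lies under 0.4 CPM in every well.

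The comparison of T288P+GDF11 with T288P asks what mature GDF11 does to a line whose PCSK5 allele is the same. HAS3 and HYAL1 fell with GDF11 and CEMIP2 and HYAL2 rose, while CD44 and CEMIP did not pass the test. Thus 4 of the 6 tested genes were called, against a background of 12.9% of all tested genes (edgeR quasi-likelihood test, adjusted p under 0.05). By direction, 2 were higher, where 5.07% of all genes were, and 2 were lower, where 7.88% were. The median log2 fold change of the 6 was 0.303 and that of all tested genes was -0.0148. The genes were chosen with earlier results of these data known. Such counts, here and below, therefore describe them and do not test them as a set.

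HAS3, which makes hyaluronan at the plasma membrane, stood at 50.7, 45.8, 47.2 and 52.6 CPM in T288P+GDF11 wells, against 120.5, 104.1, 125.9 and 105.7 CPM in T288P wells. The highest GDF11 well was below the lowest well without GDF11. The mean was 49.1 ± 3.12 CPM in T288P+GDF11 and 114 ± 10.8 CPM in T288P (SD, n = 4 each), a fall by 2.32-fold. The log2 fold change was -1.22 (SE 0.0818, 95% interval -1.39 to -1.05, adjusted p = 2.05e-07 by edgeR's quasi-likelihood test). HAS3 was called under all 17 alternative settings or left-out wells, with log2 fold changes of -1.25 to -1.17.

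HAS3 lies on chromosome 16 at 69105564 to 69118719 on the plus strand (GENCODE 29, GRCh38). Its exons share 365 bases, 6.9% of their length, with CHTF8 on the opposite strand. CHTF8, a subunit of a clamp-loading complex of DNA replication, averaged 28.8 CPM in T288P+GDF11 and 27.1 CPM in T288P (log2 fold change 0.09, edgeR adjusted p = 0.834). The 250 bases before the start that RefSeq gives for HAS3 (GRCh38.p14, chr16:69107290-69107539, plus strand) are shown because HAS3 changed most of the 6 genes and signals of the TGF-beta family reach DNA through SMAD proteins. That start lies inside the gene's span in GENCODE 29, and the stretch holds no annotated exon base.

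HAS3: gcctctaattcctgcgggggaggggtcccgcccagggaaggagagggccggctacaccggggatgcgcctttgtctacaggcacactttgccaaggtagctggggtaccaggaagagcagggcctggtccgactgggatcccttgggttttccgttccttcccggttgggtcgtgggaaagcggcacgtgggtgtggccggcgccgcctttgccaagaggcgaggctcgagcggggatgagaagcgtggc

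The HAS3 stretch is 66.0% G and C and has no base in capitals, since it holds neither the SMAD box CAGAC nor the AP-1 motif TGANTCA on either strand. Among 35116 RefSeq windows of the same length, 38.0% held CAGAC and 6.57% held TGANTCA. RefSeq windows were matched for HYAL1, HYAL2, CEMIP2, CD44 and CEMIP as well, and of these HYAL1 and CEMIP held 1 CAGAC each, on the strand opposite to the one printed, where it reads GTCTG. The 30 bases that hold it are given with the match in capitals.

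HYAL1 (GRCh38.p14, chr3:50303795-50303824, minus strand): cagcaggGTCTGcccctgcccacctcctcc

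CEMIP (GRCh38.p14, chr15:80779148-80779177, plus strand): ccgcgggctcagGTCTGcgtctcccagagc

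Counted from the RefSeq start, the match begins at position -243 in HYAL1 and -210 in CEMIP, and TGANTCA was found in none of these windows. Unlike the HAS3 window, they hold annotated exon bases in GENCODE 29, with 250 in CEMIP2 and CD44, 161 in HYAL2, 83 in HYAL1 and 27 in CEMIP. By that annotation they are thus not purely upstream sequence. Of the 2 genes called lower with GDF11, the HYAL1 window held CAGAC and the HAS3 window did not.

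HYAL1, a lysosomal hyaluronidase that degrades hyaluronan to small fragments, stood at 5.03, 6.08, 6.08 and 4.59 CPM in T288P+GDF11 wells, against 11.3, 8.23, 11.0 and 8.80 CPM in T288P wells. The groups did not overlap. The mean was 5.44 ± 0.756 CPM in T288P+GDF11 and 9.82 ± 1.52 CPM in T288P, a fall by 1.8-fold (log2 fold change -0.85, SE 0.17, 95% interval -1.20 to -0.49, edgeR adjusted p = 0.0039). The gene lies on chromosome 3 at 50299889 to 50312381 on the minus strand, beside HYAL2 at 50317790 to 50322906 on the same strand (GENCODE 29, GRCh38).

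HYAL2, a membrane-anchored hyaluronidase that cuts long chains into intermediate ones, stood at 12.6, 17.7, 14.9 and 14.4 CPM in T288P+GDF11 wells, against 8.90, 11.9, 11.5 and 11.8 CPM in T288P wells. The groups did not overlap, and T288P replicate 1 was the lowest well. The mean was 14.9 ± 2.12 CPM in T288P+GDF11 and 11.0 ± 1.43 CPM in T288P, a rise of 1.35-fold (log2 fold change 0.43, SE 0.133, 95% interval 0.15 to 0.71, edgeR adjusted p = 0.0388). This call was lost under 8 of 17 alternatives, among them leaving out T288P replicate 1 (log2 fold change 0.36, adjusted p = 0.132), T288P replicate 3 or any 1 of T288P+GDF11 replicates 2, 3 and 4, and its direction held in all 17. HYAL2 shares 509 exon bases, 11.2% of its length, with TUSC2 on the same strand, and TUSC2 averaged 7.32 CPM in T288P+GDF11 and 7.39 CPM in T288P (adjusted p = 0.97).

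The neighbouring hyaluronidase genes moved in opposite directions. HYAL1 counts per HYAL2 count were 0.318 to 0.408 in T288P+GDF11 wells (mean 0.367 ± 0.0438), against 0.753 to 1.27 in M452I wells, 0.69 to 1.27 in T288P wells and 0.866 to 0.99 in WT wells. Per kilobase, HYAL1 lay below HYAL2 without overlap in the T288P+GDF11 wells, at 1.46 to 1.94 against 2.77 to 3.90 CPM per kb. In T288P wells HYAL1 was at 2.63 to 3.60 CPM per kb and HYAL2 at 1.96 to 2.63, so the order per kilobase was the other way, with ranges that met. That order in T288P rests on the division by exon length. By counts HYAL1 was below HYAL2 in T288P replicates 2, 3 and 4 as well, at 0.69, 0.952 and 0.746 per HYAL2 count. These ratios describe the wells and were not tested.

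CEMIP2, a type II transmembrane protein linked to the breakdown of extracellular hyaluronan, stood at 40.9, 30.9, 39.2 and 41.0 CPM in T288P+GDF11 wells, against 22.4, 21.2, 28.6 and 26.0 CPM in T288P wells. The groups did not overlap, though T288P+GDF11 replicate 2 was close to the highest T288P well. CEMIP2 lies on chromosome 9 at 71683366 to 71816690 on the minus strand. The mean was 38.0 ± 4.81 CPM in T288P+GDF11 and 24.6 ± 3.38 CPM in T288P, a rise of 1.55-fold (log2 fold change 0.63, SE 0.141, 95% interval 0.34 to 0.93, edgeR adjusted p = 0.00733). HAS3 counts per CEMIP2 count were 1.20 to 1.48 in T288P+GDF11 wells, against 3.41 to 5.69 in M452I, 4.07 to 5.37 in T288P and 4.24 to 5.37 in WT. This ratio restates the changes of HAS3 and CEMIP2 given above and was not tested.

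**Figure D2:**
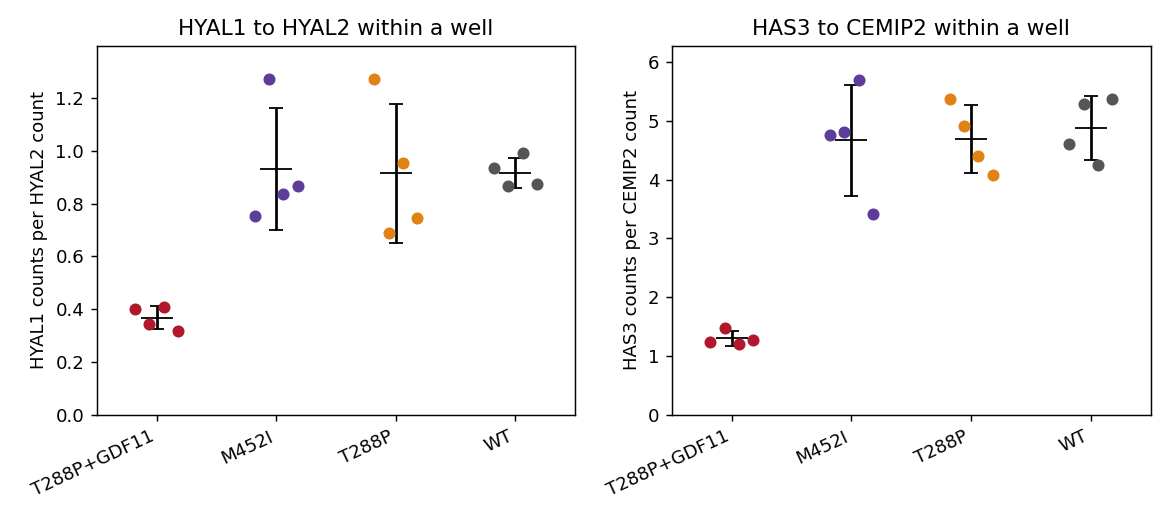
HYAL1 counts per HYAL2 count (left) and HAS3 counts per CEMIP2 count (right) in each well, on linear axes from 0; points are wells, and black lines are the mean and SD of 4 wells. The 4 T288P+GDF11 wells lie below every other well in both panels, at 0.318 to 0.408 and at 1.20 to 1.48.

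CEMIP, which binds hyaluronan and promotes its breakdown at the cell surface, stood at 1.85, 1.12, 1.34 and 2.26 CPM in T288P+GDF11 wells, against 0.657, 1.21, 1.11 and 0.869 CPM in T288P wells. The groups overlapped by 1 well. CEMIP lies on chromosome 15 at 80779343 to 80951776 on the plus strand. The log2 fold change of 0.76 had a 95% interval of -0.11 to 1.63 (SE 0.414, edgeR adjusted p = 0.242), so neither no difference nor a 2-fold rise lay outside it. Its exons share 224 bases with MESD, a chaperone gene on the opposite strand, which was itself higher, at 36.5 CPM in T288P+GDF11 and 25.9 CPM in T288P (adjusted p = 0.00381), and reads from that stretch, 2.94% of the exon length of CEMIP, cannot be assigned without a known strand setting.

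CD44, the receptor, encoded on chromosome 11 at 35138870 to 35232402 on the plus strand, stood at 561.9, 573.3, 601.6 and 605.5 CPM in T288P+GDF11 wells, against 515.1, 491.6, 560.0 and 510.7 CPM in T288P wells. The groups did not overlap, by a gap between 561.9 and 560.0 CPM, and 22% of all tested genes did not overlap in this comparison. The log2 fold change was 0.17 (SE 0.0741, 95% interval 0.02 to 0.33, 1.13-fold, edgeR adjusted p = 0.131). The gene passed the threshold when each library's ribosomal protein share entered the model as a covariate (adjusted p = 0.0151) and by DESeq2 (adjusted p = 0.0257), and not under the other 15 alternatives. A sum over a gene does not show which CD44 isoform was made, and fewer cells of a kind cannot be told apart from less RNA per cell in these bulk wells.

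**Figure D3:**
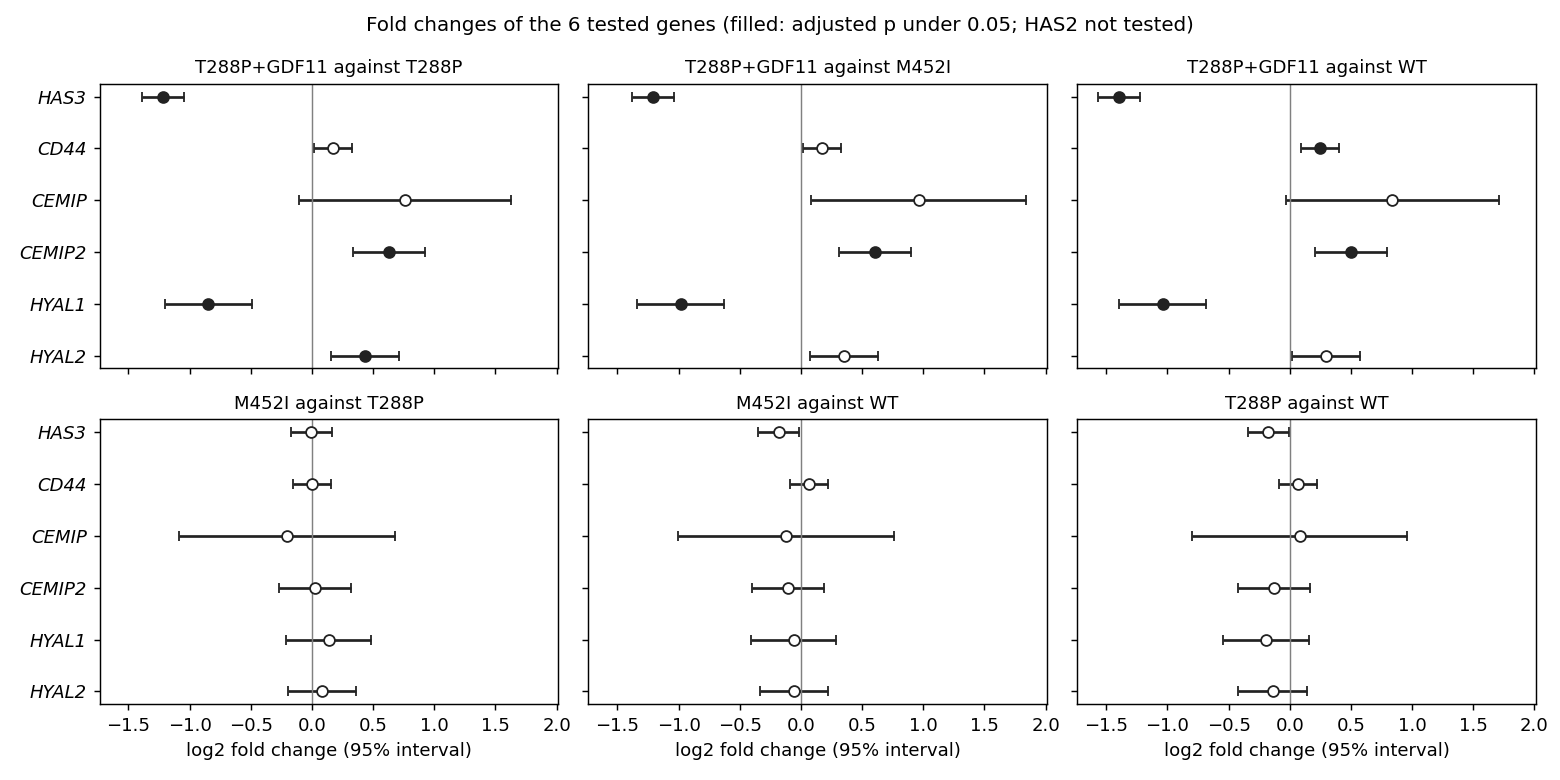
Log2 fold changes with 95% intervals of the 6 tested hyaluronan genes in all 6 comparisons, the first-named group over the second; filled points had an adjusted p under 0.05. HAS3, HYAL1 and CEMIP2 are filled in the 3 comparisons of T288P+GDF11, and no point is filled in the 3 comparisons among M452I, T288P and WT.

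T288P+GDF11 was also set against WT and M452I. The 3 comparisons share the T288P+GDF11 wells, so their values stand side by side and do not count as separate evidence. Against WT, 4 of 6 genes were called, where 28.9% of all tested genes were. The 2 higher genes were CD44 and CEMIP2 (13.8% of all genes were higher) and the 2 lower ones HAS3 and HYAL1 (15.1% were lower). Against M452I, 3 of 6 were called, where 21.2% of all genes were, with CEMIP2 higher (8.27% of all genes were higher) and HAS3 and HYAL1 lower (12.9% were lower).

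HAS3 averaged 49.1 CPM in T288P+GDF11, against 129 ± 6.64 CPM in WT (edgeR adjusted p = 1.8e-08, log2 fold change -1.39, SE 0.0821) and 114 ± 5.99 CPM in M452I (log2 fold change -1.21, adjusted p = 2.18e-07). HYAL1 averaged 5.44 CPM in T288P+GDF11, against 11.2 ± 2.02 CPM in WT (log2 fold change -1.04, SE 0.17, adjusted p = 0.000263) and 10.8 ± 2.07 CPM in M452I (log2 fold change -0.98, adjusted p = 0.00101). CEMIP2 averaged 38.0 CPM in T288P+GDF11, against 26.8 ± 4.45 CPM in WT (log2 fold change 0.50, SE 0.14, adjusted p = 0.0124) and 25 ± 4.2 CPM in M452I (log2 fold change 0.60, adjusted p = 0.00663). Its lowest GDF11 well, at 30.9 CPM, lay below the highest WT well, at 32.2 CPM, and just above the highest M452I well, at 30.8 CPM.

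CD44 averaged 586 ± 21.3 CPM in T288P+GDF11 and 494 ± 3.09 CPM in WT, with no overlap (edgeR adjusted p = 0.0192, log2 fold change 0.24, SE 0.0741). Without T288P+GDF11 replicate 3 the adjusted p was 0.0566. In T288P+GDF11 against WT the wells of 35.1% of all tested genes did not overlap. Against M452I, which averaged 519 ± 31.0 CPM, CD44 was not called (log2 fold change 0.18, adjusted p = 0.0969). HYAL2 was not called against WT (log2 fold change 0.29, adjusted p = 0.106) or M452I (log2 fold change 0.35, adjusted p = 0.0647). CEMIP was not called against WT (log2 fold change 0.84, adjusted p = 0.139) or M452I (log2 fold change 0.96, adjusted p = 0.105). Without M452I replicate 4, which had the highest CEMIP level of its group at 1.45 CPM, the log2 fold change of CEMIP was 1.36 and its adjusted p was 0.0168. Without M452I replicate 4 and T288P replicate 1 together, 5 of 6 genes were called against M452I, 3 higher and 2 lower.

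The comparisons among alleles without GDF11 called none of the 6 genes. In M452I against WT 0.0238% of all tested genes were called (4 genes), in T288P against WT 0.0417% (7 genes), and in M452I against T288P 0.00596% (1 gene). Few genes of any kind thus passed there in the reported fit, but these totals depended strongly on the setting. Across the alternatives they ran up to 640 genes in M452I against WT, 698 in T288P against WT and 2420 in M452I against T288P. None of the 6 hyaluronan genes was called in these comparisons under any alternative. At an unadjusted p under 0.05 by edgeR there were 1058, 1425 and 366 genes in these comparisons, and HAS3 was the one hyaluronan gene among them, in the comparisons with WT. DESeq2 also called none of the 6.

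HAS3 stood at 116.7, 115.0, 118.1 and 104.9 CPM in M452I wells and at 120.5, 104.1, 125.9 and 105.7 CPM in T288P wells, against 132.6, 124.6, 136.3 and 122.2 CPM in WT wells. The M452I wells lay below all WT wells, as did those of 4.09% of all genes in one direction or the other, and the T288P wells overlapped them by 1 well. The log2 fold change was -0.18 in M452I (SE 0.0804, 95% interval -0.35 to -0.01, edgeR adjusted p = 0.78) and -0.18 in T288P (SE 0.0804, 95% interval -0.35 to -0.01, edgeR adjusted p = 0.567). Both comparisons use the same WT wells. Between M452I and T288P the log2 fold change of HAS3 was 0.00 with a 95% interval of -0.17 to 0.16.

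CD44 was narrow in WT, at 491.1 to 497.5 CPM, against 479.5 to 548.1 CPM in M452I and 491.6 to 560.0 CPM in T288P. Its log2 fold change was 0.07 in both alleles against WT, with 95% intervals of -0.09 to 0.22 in M452I and -0.08 to 0.23 in T288P. For the other genes the intervals against WT bound what these wells can show. Those of CEMIP2 ran from -0.40 to 0.19 in M452I and from -0.43 to 0.17 in T288P, those of HYAL1 from -0.41 to 0.29 in M452I and from -0.54 to 0.16 in T288P, and those of HYAL2 from -0.34 to 0.22 in M452I and from -0.42 to 0.14 in T288P. CEMIP, with 10 to 68 counts a well in these groups, had intervals from -1.01 to 0.76 in M452I and from -0.80 to 0.96 in T288P.

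Other genes of hyaluronan biology were taken from 5 lists by role. The lists too were chosen with earlier results of these data known, so counts from them do not test the lists as sets. In T288P+GDF11 against T288P, 3 of 7 tested precursor enzymes were lower and 0 higher (median log2 fold change -0.203), 5 of 9 tested receptors and binding proteins were higher and 0 lower (median 0.474), and 3 of 11 tested CD44 partners and regulators were lower and 0 higher (median -0.155). Over all genes tested there, 7.88% were lower and 5.07% higher, with a median of -0.0148. Of 3 lysosomal exoglycosidases 0 were called, and of the remaining synthase and hyaluronidase genes only HYAL3 was tested. It averaged 4.38 CPM in T288P+GDF11 and 3.97 CPM in T288P (edgeR adjusted p = 0.693). In the comparisons among M452I, T288P and WT, 0 genes of these lists were called.

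The precursor enzymes make the nucleotide sugars that synthases join. GFPT1, which commits fructose 6-phosphate to the hexosamine pathway, averaged 278 CPM in T288P+GDF11 and 366 CPM in T288P (edgeR adjusted p = 0.00925, log2 fold change -0.40, SE 0.0927). PGM3, a mutase of the same pathway, averaged 144 CPM in T288P+GDF11 and 184 CPM in T288P (log2 fold change -0.36, adjusted p = 0.0142). UAP1, which makes UDP-N-acetylglucosamine, averaged 356 CPM in T288P+GDF11 and 471 CPM in T288P (log2 fold change -0.40, adjusted p = 0.0328). GNPNAT1, the acetyltransferase between them, stood at 213 CPM in T288P+GDF11 and 179 CPM in T288P (adjusted p = 0.0534), and UGP2, which makes UDP-glucose, at 333 and 284 CPM in these groups (adjusted p = 0.0534). Both were called higher against WT, where UGDH, which oxidises UDP-glucose to UDP-glucuronate, was called lower at 43.1 CPM in T288P+GDF11 and 58.5 CPM in WT (log2 fold change -0.44, adjusted p = 0.00286). Against WT, UGP2 and UGDH were called under all 17 alternatives and GNPNAT1 under 10 of 17 (adjusted p up to 0.104), being lost without any 1 of T288P+GDF11 replicates 1, 3 and 4 or WT replicates 2 and 4. GFPT1 was called under all 17 alternatives, PGM3 was lost without T288P+GDF11 replicate 1 or 3, and UAP1 also without T288P replicate 1 or 3, with adjusted p-values of up to 0.0528 for PGM3 and 0.147 for UAP1.

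Among receptors and binding proteins, HMMR (RHAMM), a hyaluronan receptor that also binds the mitotic spindle, averaged 12.2 CPM in T288P+GDF11 and 5.98 CPM in T288P (edgeR adjusted p = 0.00329, log2 fold change 1.03, SE 0.201). It stood at 13.2, 11.6, 11.9 and 12.1 CPM in T288P+GDF11 wells, against 5.29, 6.87, 5.12 and 6.65 CPM in T288P wells. TNFAIP6 (TSG-6), which transfers heavy chains onto hyaluronan, averaged 4.03 CPM in T288P+GDF11 and 2.02 CPM in T288P (log2 fold change 0.99, SE 0.261, adjusted p = 0.0187). VCAN, the large proteoglycan versican, averaged 43.7 CPM in T288P+GDF11 and 31.5 CPM in T288P, with overlapping wells (log2 fold change 0.47, SE 0.14, adjusted p = 0.0335).

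The toll-like receptors TLR2 and TLR4, which are better known as sensors of microbial products and are held to respond to hyaluronan fragments, were also higher. TLR2 averaged 12 CPM in T288P+GDF11 and 3.76 CPM in T288P (edgeR adjusted p = 0.044, log2 fold change 1.67, SE 0.513), and TLR4 averaged 1.66 and 0.437 CPM in these groups (log2 fold change 1.92, SE 0.53, adjusted p = 0.0234). TLR2 stood at 9.98 CPM in M452I replicate 4, near the 10.7 to 14.2 CPM of the T288P+GDF11 wells and above the 1.49 to 3.14 CPM of the other M452I wells. HABP4, an intracellular hyaluronan-binding protein, was not called against T288P (log2 fold change -0.36, adjusted p = 0.117) and was called lower against WT (log2 fold change -0.58, adjusted p = 0.00735) and M452I (log2 fold change -0.45, adjusted p = 0.038). The call against WT held under all 17 alternatives, and that against M452I under 8 of 17 (adjusted p up to 0.148), being lost without any 1 of M452I replicates 1, 2 and 3 or T288P+GDF11 replicates 1, 3 and 4. Against T288P, HMMR was called under all 17 alternatives. With 1 T288P or T288P+GDF11 well left out, TLR2 stayed called in 1 of 8 fits, VCAN in 3, TLR4 in 4 and TNFAIP6 in 5. The count of 5 fell to 1 without T288P replicate 1 or T288P+GDF11 replicate 3, to 2 without T288P+GDF11 replicate 1, and to 3 without T288P replicate 2 or 4 or T288P+GDF11 replicate 4.

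Of the CD44 partners, EZR and MSN encode ezrin and moesin, which tie CD44 to cortical actin. EZR averaged 445 CPM in T288P+GDF11 and 622 CPM in T288P (edgeR adjusted p = 0.0268, log2 fold change -0.48, SE 0.137). MSN averaged 386 and 491 CPM in these groups (log2 fold change -0.35, SE 0.0842, adjusted p = 0.0117). ESRP1, a splicing factor of epithelial cells that favours variant exons of CD44, averaged 223 CPM in T288P+GDF11 and 272 CPM in T288P (log2 fold change -0.29, SE 0.0901, adjusted p = 0.042). Against T288P, MSN was called under 16 of 17 alternatives, EZR under 12 and ESRP1 under 7. With 1 well left out, MSN was called in 7 of 8 fits, EZR in 3 and ESRP1 in 1. Against WT 6 of 11 were lower and 1 higher, where 15.1% of all genes were lower and 13.8% higher, the lower ones including ADAM17, a sheddase (log2 fold change -0.31, adjusted p = 0.00863) and NF2, or merlin (log2 fold change -0.24, adjusted p = 0.0145). The higher one, the membrane protease MMP14, was named after its values were seen (log2 fold change 0.33, adjusted p = 0.0409). It was called under 10 of 17 alternatives (adjusted p up to 0.117), and lost without any 1 of T288P+GDF11 replicates 1, 2 and 3 or WT replicates 2, 3 and 4, while NF2 was lost without WT replicate 1 or 2 (adjusted p up to 0.141). The count of 3 against T288P fell to 0 without T288P replicate 1, and to 1 without T288P replicate 3 or any 1 of T288P+GDF11 replicates 1, 2 and 3.

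**Figure D4:**
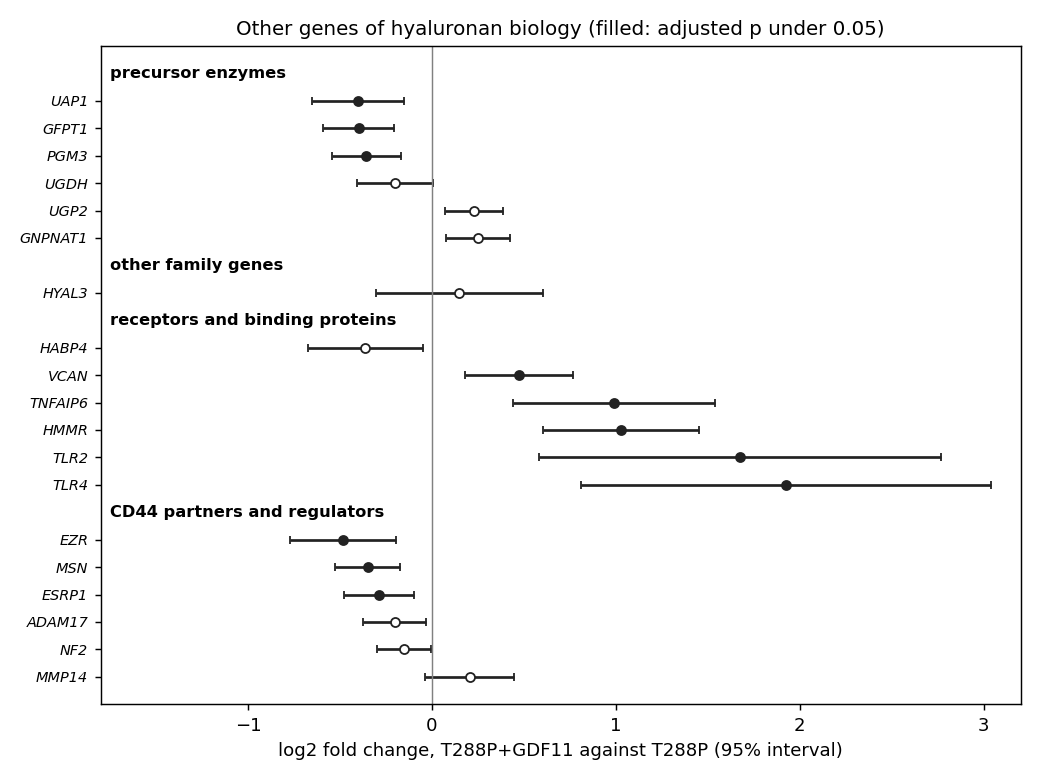
Log2 fold changes with 95% intervals, T288P+GDF11 over T288P, of the tested genes of hyaluronan biology named in the text, grouped by list; filled points had an adjusted p under 0.05. Filled points lie left of 0 among precursor enzymes and CD44 partners and right of 0 among receptors and binding proteins.

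For each called member, the 3 genes with the most similar profile over the 16 libraries were found by the root mean square difference of log2 CPM, each gene centred on its own mean. The libraries are common to all genes, so this likeness is a description of these wells. For HAS3 they were KIAA0513 (difference 0.117), GPRC5A, an orphan G protein-coupled receptor (0.118), and FEM1B, a substrate receptor of a ubiquitin ligase (0.142), against a median difference of 0.657 over all tested genes. GPRC5A averaged 688 ± 78.0 CPM in T288P+GDF11, 1390 ± 99.8 in M452I, 1450 ± 218 in T288P and 1730 ± 200 in WT, with M452I and T288P overlapping as they do in HAS3. For CEMIP2 they were FRMD6, a FERM-domain protein (0.106), PIK3R1, a regulatory subunit of phosphoinositide 3-kinase (0.112), and LRAT, which esterifies retinol (0.113). For HYAL1 they were JUN, a component of AP-1 (0.175), ZBTB34 (0.184) and GLTP, a glycolipid transfer protein (0.188). JUN averaged 25.6 ± 3.61 CPM in T288P+GDF11, 42.4 ± 5.65 in M452I, 42.2 ± 10.4 in T288P and 46.4 ± 9.56 in WT.

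**Figure D5:**
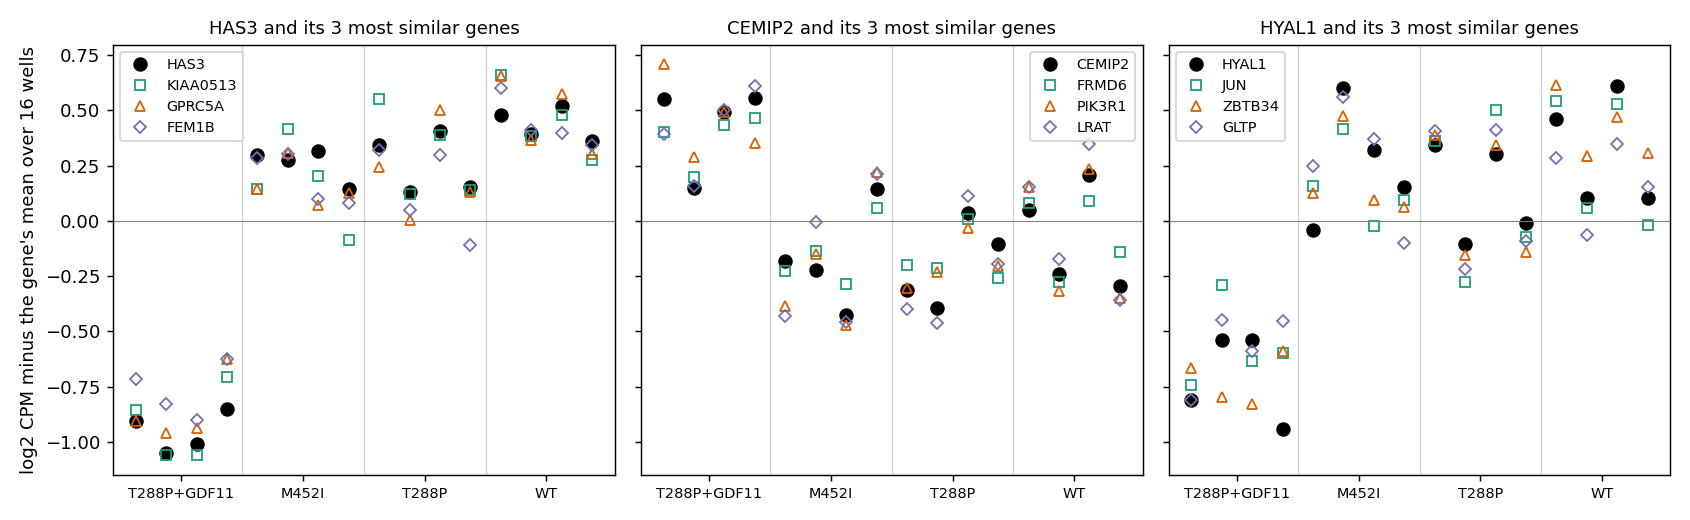
Log2 CPM of HAS3, CEMIP2 and HYAL1 (black) and of the 3 genes most similar to each in the 16 wells, each gene minus its own mean; wells run by group, T288P+GDF11 at the left. HAS3 and HYAL1 with their similar genes lie below 0 in every T288P+GDF11 well, and CEMIP2 with its similar genes lies above 0 there.

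For HYAL2 the most similar genes were DENR, a translation reinitiation factor (0.129), IFNAR2, a subunit of the type I interferon receptor (0.13), and PGP, phosphoglycolate phosphatase (0.131). For CD44 they were ASAH1, acid ceramidase (0.0693), SERINC3 (0.07) and ZDHHC3, a palmitoyltransferase (0.0719). CD44 itself varied little, with a standard deviation of 0.11 in log2 CPM over the 16 libraries against 0.581 for HAS3, so a small difference is easier to reach for it.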

How the data were processed

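RNA was sequenced as poly(A)-selected 2x150 reads, per the labels' protocols. The authors deposited whole-number counts per gene and library, not normalized. HISAT2 (no version given) and StringTie 2.2.1 were used on GRCh38, per the submitters' processing notes. How reads were counted per gene, with which annotation and strand setting, is not given in the sources used here. Genes on the opposite strand share 35.6% of the exon bases of GNPNAT1, 27.0% of HABP4, 14.8% of PGM3 and 12.3% of ADAM17. Reads from these stretches cannot be assigned without a known strand setting. In each library counts of 1 and of 2 were about as frequent as each other, so read mates may have been counted separately.

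Tests used R 4.3.3 and edgeR 4.0.16 with TMM factors, filterByExpr (minimum count 10), robust dispersions and its quasi-likelihood test. A single model without covariates held all 16 libraries. P-values were adjusted by Benjamini-Hochberg over 16790 genes, and genes were called at an adjusted p under 0.05. The standard error (SE) of a log2 fold change is its size over the root of its F statistic. Levels are TMM-scaled CPM, and levels per kilobase use merged GENCODE 29 exons. The test was checked on simulated counts.

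The members and lists were chosen with earlier results of these data known. All members were named. Of each list, up to 6 genes called in any comparison were named, by smallest adjusted p, with HAS1, HMMR and HYAL3 always. Some genes that this rule takes are not reported here. For each member called, the 3 genes with the smallest root mean square difference were named. Prior count for log2 CPM was 2. Promoter sequences are from RefSeq (GRCh38.p14).

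Alternatives were RLE normalization, no low-count filter, at least 50 counts in 4 libraries, a 2-group fit, the replicate number as a block, the ribosomal protein share as a covariate, limma-voom (limma 3.58.1), DESeq2 1.42.0, and leaving out each library in the comparison or M452I replicate 4 and T288P replicate 1 together. Depth limits precision most for HAS2 and CEMIP. Floors on counts cover counting error only, while the intervals of log2 fold changes also include the spread between wells.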

Additional observations from a re-analysis of the deposited data

Results flagged for a closer look

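HAS2 in M452I replicate 2 was at 0.333 CPM, from 12 counts, while the other M452I wells were at 0. HYAL2 in T288P replicate 1 was at 8.90 CPM, below the 11.5 to 11.9 CPM of the other T288P wells. Each lay farther from its nearest neighbour, relative to the range of its 4 wells, than Dixon's 95% critical value allows. For HAS2 the other M452I wells were tied at 0, so any count in the remaining well would have been flagged. Where values are not tied, chance flags about 1 in 20 groups, and 28 groups were examined.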

How the results depend on the processing

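The 6 tested genes in 6 comparisons were refitted under each alternative, and 568 of 612 values kept both direction and side of the threshold, 9 lost and 12 gained a call, and 23 changed sign. The calls of HAS3, HYAL1 and CEMIP2 in the 3 comparisons of T288P+GDF11 held under all 17 alternatives run for each, with adjusted p-values against T288P of up to 1.3e-05, 0.0196 and 0.0272. HYAL2 against T288P was called in 9 of 17 (log2 fold change 0.344 to 0.508). Against M452I 5 genes were called, 3 higher and 2 lower, under the stricter filter, without M452I replicate 4 and T288P replicate 1 together, and with DESeq2. With the replicate block, 3 genes were called against T288P (HYAL2 adjusted p = 0.0507), 3 against M452I, 4 against WT and 0 among the other groups. Of the hyaluronan genes named as called against T288P, it ended the calls of HYAL2, UAP1 and ESRP1, and it also ended those of GNPNAT1 and MMP14 against WT and of HABP4 against M452I. Whether wells with the same replicate number were handled together is not given. Correlations of the deviations of such wells from their group means ran from -0.197 to 0.174. Over all genes, calls against T288P numbered 1028 to 4889 across alternatives (2174 as reported). The 3 precursor enzymes lower against T288P were 1 with no low-count filter, and 5 were called, 2 of them higher, under the stricter filter, the 2-group fit, limma-voom, DESeq2, the covariate and without both outlying libraries. CD44 partners called against T288P were 6, 1 of them higher, with the covariate.

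Signs changed among uncalled values only, and the cause was not tested. With the ribosomal protein share as covariate, the log2 fold change of CEMIP in M452I was 0.354 against WT and 0.0391 against T288P, and that of CEMIP2 in M452I against WT was 0.0809. Without M452I replicate 4 and T288P replicate 1 together, M452I against T288P gave 0.0607 for HAS3, 0.031 for CD44 and -0.129 for CEMIP2. Leaving out 1 well at a time, M452I against T288P ranged from -0.0493 to 0.0466 for HAS3, -0.0349 to 0.0367 for CD44, -0.597 to 0.00168 for CEMIP, -0.0887 to 0.108 for CEMIP2 and -0.0182 to 0.12 for HYAL2. M452I against WT ranged from -0.519 to 0.252 for CEMIP, -0.183 to 0.0434 for HYAL1 and -0.129 to 0.00076 for HYAL2, and T288P against WT from -0.184 to 0.461 for CEMIP.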
